A study of Mus musculus with 2 samples.

Results

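The 10 genes described here encode the fibrillar collagen chains *Col1a1*, *Col1a2*, *Col3a1*, *Col5a1* and *Col5a2* and collagens that associate with fibrils, *Col6a1*, *Col6a3*, *Col12a1*, *Col14a1* and *Col16a1*. They were chosen by symbol and make up 10 of the 44 collagen genes and 10 of the 33696 genes counted in both libraries. Collagens are the main structural proteins of connective tissue: their chains wind around each other into a helix, are secreted as procollagens, and after cleavage outside the cell assemble into fibrils or networks. Types I and III form the bulk of the fibrils in dermis, tendon and wound tissue, type V sits inside those fibrils and starts their assembly, type VI forms beaded filaments around cells, and types XII, XIV and XVI decorate the surface of fibrils or neighbouring networks. Fibroblasts are the main source of these proteins in soft connective tissue.

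The cells came from the hindlimb digits of neonatal ICR mice, which were amputated through the middle phalanx (P2) at postnatal day 3. A bead was placed at the wound at postnatal day 7, soaked in FGF8 (500 ng/µl), a growth factor, or in 0.1% BSA, the carrier protein used as control, and cells were taken 24 h later, at postnatal day 8. Each condition is 1 library of 20 digits pooled from 5 mice, with male and female animals mixed. By the study's account some FGF8 digits do not regenerate, and the digits were pooled without regard to later outcome. The epithelium was removed before dissociation. The difference between conditions therefore has no replicate check, treatment, pool of animals and library cannot be told apart, and no test between conditions was possible.

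Transcripts were captured at their 3′ ends and counted as unique molecular identifiers (UMIs), so that copies made by PCR count once and a long gene gives no more UMIs per transcript than a short one. The FGF8 library held 7249 cell barcodes and 124889213 UMIs and the BSA library 3703 and 67739460, of which 6715 and 3252 barcodes were kept, and 6 barcode sequences occurred in both. By their sex-linked transcripts, 24.6% of the kept cells that could be called were female in the FGF8 library against 79.3% in the BSA library, so that the pools also differed in the sex of their cells. Cell types were drawn from clusters built without any collagen gene, and a name such as fibroblast-like rests on fixed marker genes. Fibroblast-like cells, led by *Mfap5*, *Mfap4* and *Crabp1*, numbered 2901 in the FGF8 library (68253694 UMIs) against 1528 in the BSA library (34865440 UMIs). Levels are given as CPM, the UMIs of a gene per 1000000 UMIs of the same cells, and conditions are compared as the log2 ratio of CPM, FGF8 over BSA. All intervals are exact 95% intervals that cover counting error only.

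The coding sequences show what unites these proteins and where they part. In a collagen helix, glycine opens each Gly-X-Y unit, and the 5 fibrillar members carried this unit without a break over 338 (*Col1a1*), 339 (*Col1a2*), 344 (*Col3a1*), 338 (*Col5a1*) and 339 (*Col5a2*) repeats, in the canonical GENCODE vM39 transcripts. The longest unbroken run was 87 repeats in *Col6a1*, 45 in *Col6a3*, 32 in *Col12a1*, 32 in *Col14a1* and 52 in *Col16a1*, whose helix was split into 14 runs of at least 10 repeats. Runs of that length covered 73.3% of the codons of *Col1a1* but 7.63% of those of *Col12a1*, most of which lies outside the helix. The opening 72 bases of the longest run are shown for a member of each class, 5′ to 3′. The glycine codon that opens each unit is in capitals, and glycine codons at other places are not.
Col1a1, codons 168 to 191: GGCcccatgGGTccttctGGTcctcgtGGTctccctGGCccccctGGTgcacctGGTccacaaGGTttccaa
Col3a1, codons 164 to 187: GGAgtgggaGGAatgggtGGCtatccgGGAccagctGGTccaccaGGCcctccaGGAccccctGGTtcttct
Col6a1, codons 256 to 279: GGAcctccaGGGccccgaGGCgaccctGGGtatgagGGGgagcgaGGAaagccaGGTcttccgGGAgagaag
Col12a1, codons 2805 to 2828: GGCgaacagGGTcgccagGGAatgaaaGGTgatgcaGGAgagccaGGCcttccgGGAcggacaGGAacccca

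On GRCm39, the build of the files, *Col1a1* lies at chr11:94827050-94843868 and *Col1a2* at chr6:4504814-4541555, so the genes of the type I chains share no locus. *Col3a1* (chr1:45350698-45395840, plus strand) and *Col5a2* (chr1:45412554-45542442, minus strand) are 16713 bases apart, tail to tail. *Col6a1* (chr10:76543440-76562283) lies 83890 bases from its partner chain *Col6a2*. The other members are *Col5a1* at chr2:27776397-27929526, *Col6a3* at chr1:90693645-90771780, *Col12a1* at chr9:79506268-79626135, *Col14a1* at chr15:55171140-55384199 and *Col16a1* at chr4:129941154-129993076. All of the stretches printed above are coding sequence.

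Fibroblast-like cells of the FGF8 library held less RNA of all 10 collagens than those of the BSA library. The 10 genes together gave 2.52% of the UMIs of these cells in the FGF8 library (1717526 UMIs; 2.51 to 2.52%) against 4.64% in the BSA library (1616218 UMIs; 4.63 to 4.64%). The log2 ratio was below 0 for 10 of 10 members, beside 57.5% of the 14121 genes with at least 100 UMIs in these cells. It lay below -0.5 for 8 members, beside 15.6% of all genes, and below -1 for 2, beside 2.39%. No member was higher in the FGF8 library, beside 42.5% of all genes. The median over the members was -0.77, from -1.11 to -0.34, while the median over all genes was -0.08.

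**Figure D1:**
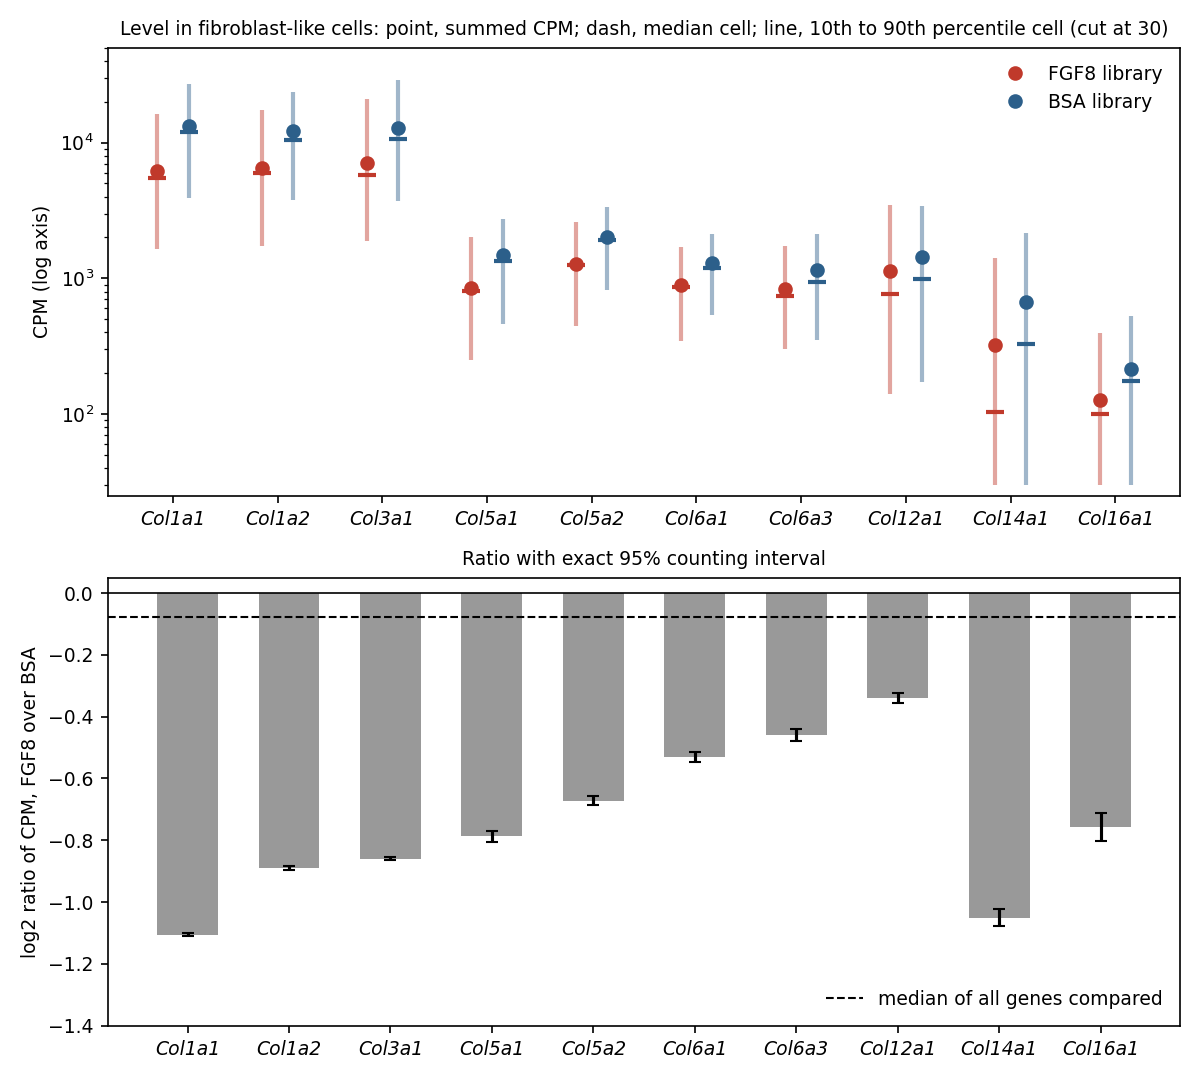
Upper panel, level of each collagen in fibroblast-like cells in CPM on a log axis: points are the CPM of all cells of a library summed, dashes the median cell, and lines run from the 10th to the 90th percentile cell (cut at 30 CPM where that percentile lies lower). Lower panel, log2 ratio of the summed CPM with its exact 95% counting interval. All 10 ratios lie below the median of all genes, at -0.08, and they run from -1.11 for *Col1a1* to -0.34 for *Col12a1*.

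*Col1a1* and *Col1a2* encode the chains of type I collagen, the main protein of bone, tendon and dermis. *Col1a1* had 6148 CPM in the FGF8 library (419595 UMIs) and 13230 CPM in the BSA library (461176 UMIs), a log2 ratio of -1.11 (-1.11 to -1.10). In the BSA library it ranked 1st of all genes by CPM in these cells, and in the FGF8 library 7th. The difference reached across the cells: 81.4% of the FGF8 cells lay below the median BSA cell, and the median cell had 5479 CPM in the FGF8 library and 11910 CPM in the BSA library.

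*Col1a2* stood at 6545 CPM (446726 UMIs) in the FGF8 library and 12120 CPM (422599 UMIs) in the BSA library, a log2 ratio of -0.89 (-0.90 to -0.88). Since *Col1a1* was lower by more than *Col1a2*, the balance of the type I chains differed between the libraries. There were 0.939 UMIs of *Col1a1* per UMI of *Col1a2* in the FGF8 library (0.935 to 0.943) against 1.09 in the BSA library (1.09 to 1.10). The same order held within each of the 5 subclusters of fibroblast-like cells described further on, where the ratio ran from 0.864 to 0.996 in the FGF8 library and from 1.01 to 1.15 in the BSA library. It was not particular to fibroblast-like cells. Every other cell type also had a lower ratio in the FGF8 library, as in macrophage-like (0.929 and 1.13) and keratinocyte-like cells (0.857 and 1.12). In these 2 examples both genes lay below the highest blood cell type of the library. They were at 0.353 to 0.486 of its level in macrophage-like and 0.217 to 0.307 in keratinocyte-like cells. These ratios may therefore stem from free RNA of other cells, which was not tested.

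*Col3a1*, the chain of type III collagen, which is laid down with type I in extensible tissue and early wound matrix, was the most abundant member in the FGF8 library. It had 7035 CPM there (480151 UMIs) and 12760 CPM in the BSA library (444743 UMIs), a log2 ratio of -0.86 (-0.86 to -0.85). The UMIs of *Col3a1* per UMI of *Col1a1* were 1.14 in the FGF8 library (1.14 to 1.15) against 0.964 in the BSA library (0.960 to 0.968). Per UMI of the other type I chain, *Col1a2*, the values lay close together, at 1.07 (1.07 to 1.08) and 1.05 (1.05 to 1.06), and in subclusters 0 and 4 the log2 ratio of *Col3a1* (-0.38 and -0.23) was below that of *Col1a2* (-0.35 and -0.14).

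*Col5a1* and *Col5a2* encode chains of type V collagen, which nucleates type I fibrils and limits their width. *Col5a1* had 854 CPM in the FGF8 library and 1474 CPM in the BSA library, with a log2 ratio of -0.79 (-0.80 to -0.77). *Col5a2* had 1265 and 2015 CPM, with a log2 ratio of -0.67 (-0.69 to -0.66). Both ratios lay between those of the type I chains and those of type VI, and the third type V chain, *Col5a3*, which is outside the set, had 201 and 210 CPM and a log2 ratio of -0.07 (-0.11 to -0.02).

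*Col6a1* and *Col6a3* encode chains of type VI collagen, which links cells to the fibrillar matrix. *Col6a1* had 899 CPM in the FGF8 library and 1298 CPM in the BSA library, a log2 ratio of -0.53 (-0.55 to -0.51). *Col6a3* had 836 and 1149 CPM and a ratio of -0.46 (-0.48 to -0.44). Their partner chain *Col6a2* had 618 and 944 CPM, at -0.61 (-0.63 to -0.59), so the 3 chains lay close together, and there were 1.08 UMIs of *Col6a1* per UMI of *Col6a3* in the FGF8 library against 1.13 in the BSA library.

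The remaining 3 members, of types XII, XIV and XVI, have short or interrupted helices and bind to the surface of other collagens. *Col12a1*, abundant in dense and stretched connective tissue, had the smallest difference of the 10, with 1134 CPM in the FGF8 library and 1435 CPM in the BSA library, a log2 ratio of -0.34 (-0.36 to -0.32). *Col14a1*, its relative of similar build that limits fibril growth, had 321 CPM (21936 UMIs) in the FGF8 library and 666 CPM (23204 UMIs) in the BSA library, a log2 ratio of -1.05 (-1.08 to -1.02). Their UMI ratio, *Col12a1* per *Col14a1*, was 3.53 in the FGF8 library (3.48 to 3.58) against 2.16 in the BSA library (2.12 to 2.19). *Col16a1* was the lowest member, at 127 CPM (8695 UMIs) and 215 CPM (7502 UMIs), with a ratio of -0.76 (-0.80 to -0.71).

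The members also differed in how evenly cells shared their RNA. In both libraries a UMI of *Col1a1*, *Col1a2*, *Col3a1*, *Col5a1*, *Col5a2* or *Col6a1* was found in 99.35% to 100% of the fibroblast-like cells. In neutrophil-like cells, which should lack these genes and were shallower (median 2424 and 3214 UMIs per cell for FGF8 and BSA, while fibroblast-like cells had 20614 and 21685), the same 6 genes were found in 26.9% to 89.3% and in 12.0% to 75.95% of cells. With 2000 UMIs drawn at random from every cell, *Col3a1* was found in 98.8% of fibroblast-like and 83.05% of neutrophil-like FGF8 cells, and in 99.6% and 47.3% of BSA cells. *Col14a1* was found in 68.05% of cells with FGF8 and 77.2% with BSA, and the 10% of cells with the most *Col14a1* UMIs held 50.2% and 44.6% of all its UMIs. For *Col5a2*, the most evenly spread member, the top 10% of cells held 24.4% and 24.6%. In the thinned cells, which leave out 3 shallower FGF8 and 8 BSA fibroblast-like cells, *Col14a1* was found in 35.0% and 48.95% of cells, *Col16a1* in 24.6% and 32.2%, and *Col5a1* in 75.2% and 85.4%. In neutrophil-like cells the thinned share was 6.39% and 2.70% for *Col14a1*, 4.18% and 2.70% for *Col16a1*, and 21.6% and 15.5% for *Col5a1*. For each of these 3 genes the share in fibroblast-like cells lay above that of neutrophil-like cells in both libraries.

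The balance of cell states and of sexes differed between the libraries along with the collagens. Within female-called cells (606 FGF8, 1086 BSA) all 10 members were lower in the FGF8 library with a median log2 ratio of -0.94, and within male-called cells (1969 and 275) all 10 were lower with a median of -0.74. *Col1a1* was at -1.34 among the female-called and at -0.99 among the male-called cells, so the direction of the difference was seen in each sex alone. The 8 markers that define fibroblast-like cells summed to 4404 CPM in the FGF8 library and 6632 CPM in the BSA library, all 8 lower in the FGF8 library and none at 0, and their part in the result was not tested. The 6 tenocyte markers summed to 692 and 582 CPM, with 1 of 6 higher in the FGF8 library, and the 7 osteoblast markers to 338 and 314 CPM, with 4 of 7 higher.

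Reclustering the fibroblast-like cells, again without collagens, gave 5 subclusters that differed in collagen level and in their share of each library. Subcluster 0, led by *Nrg1* and *Zfp536*, held the most collagen RNA, with 4.92% of its UMIs from the 10 genes in the FGF8 library against 6.42% in the BSA library. Subcluster 1, led by the mitosis genes *Ube2c*, *Plk1* and *Cenpf* and by *Prg4*, which encodes the joint lubricant lubricin, held less, with 1.45% and 3.09%. Subcluster 1 made up 37.1% of fibroblast-like cells with FGF8 (1076 cells) and 17.1% with BSA (261 cells), and its cells were the deepest, with a median of 34219 and 31369 UMIs. Subclusters 2 (led by *Fmod* and *Kcnma1*), 3 (*Lpl* and *Dlk1*) and 4 (*Corin* and *Sox18*) held 2.71% and 3.80%, 3.47% and 4.72%, and 1.81% and 2.04%. By the marker lists subclusters 0 and 3 were named fibroblast, while 1, 2 and 4 were left unnamed. In subcluster 2 osteoblast markers had the highest mean log2 fold over the other fibroblast-like cells (3.12), followed by tenocyte markers (1.96). Fibroblast-like cells may thus include bone-like or tendon-like cells.

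Both the mix of subclusters and the level within them differed. In subcluster 1 all 10 members were lower in the FGF8 library, beside 55.2% of all genes, with a median log2 ratio of -0.94. In the other subclusters 9 of 10 members were lower with smaller differences: the median was -0.30 in subcluster 0 (49.9% of all genes lower), -0.38 in subcluster 2 (44.0%), -0.38 in subcluster 3 (49.5%) and -0.19 in subcluster 4 (48.0%). With the subclusters given the same weight in both libraries the median over the members was -0.44, and without subcluster 1, an alternative chosen after seeing the data, it was -0.37. In cells without a *Prg4* UMI it was -0.49. The difference over all fibroblast-like cells was thus larger than within most subclusters, and 9 of 10 members were lower under each of these 3 alternatives.

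**Figure D2:**
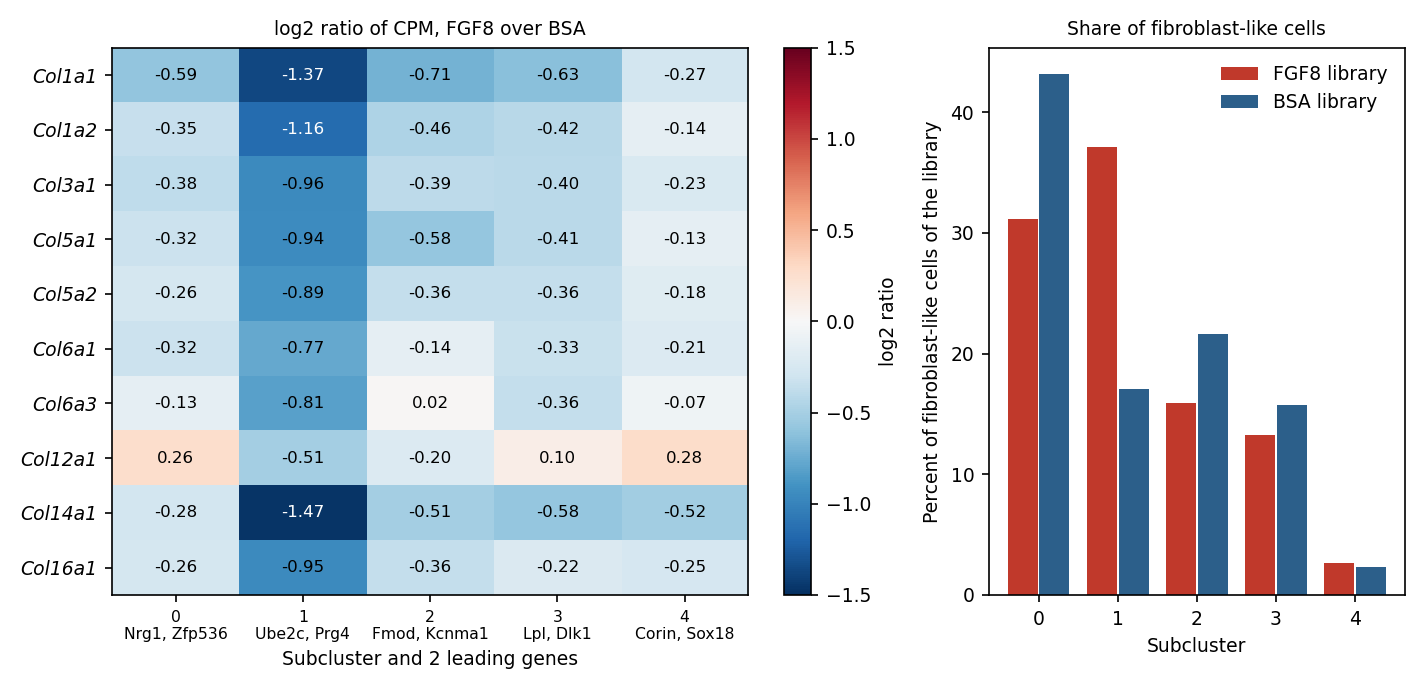
Left, log2 ratio of CPM (FGF8 over BSA) of each collagen in the 5 subclusters of fibroblast-like cells, blue where lower and red where higher in the FGF8 library, with the value in each cell of the map. Right, percent of the fibroblast-like cells of each library that fell in each subcluster. The lowest ratios stand in subcluster 1, led by *Ube2c* and *Prg4*, with 37.1% of the cells for FGF8 and 17.1% for BSA, and *Col12a1* is the member above 0 in subclusters 0, 3 and 4.

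The members were not alike across subclusters. *Col1a1* had 3552 CPM in subcluster 1 of the FGF8 library against 9187 CPM in the BSA library, a log2 ratio of -1.37 (-1.38 to -1.36), and 11780 against 17790 CPM in subcluster 0, at -0.59. *Col14a1* showed the widest range in the FGF8 library, with 81.7 CPM in subcluster 1, little above the 68.5 CPM of the highest blood cell type, and 933 CPM in subcluster 0, an 11.4-fold spread. In the BSA library its spread was 5.0-fold, and that of *Col3a1* was wider. *Col3a1* had its highest level in subcluster 0 and its lowest in subcluster 4 in both libraries, 5.14-fold apart in the FGF8 library against 5.68-fold in the BSA library. *Col6a1* was the most even, with spreads of 1.56-fold and 1.30-fold.

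*Col12a1* was the exception in direction. It was higher in the FGF8 library in subcluster 0 (2642 and 2209 CPM, log2 ratio 0.26), in subcluster 3 (981 and 917 CPM, 0.10) and in subcluster 4 (1143 and 939 CPM, 0.28). It was lower in subcluster 1 (661 and 943 CPM, -0.51) and in subcluster 2 (1064 and 1220 CPM, -0.20). Its lower level over all fibroblast-like cells turned to 0.05 with equal subcluster weights, to 0.02 in cells without a *Prg4* UMI and to 0.09 without subcluster 1. *Col6a3* was the only other member at or above 0 in any subcluster, at 0.02 in subcluster 2, and the remaining 8 members were below 0 in all 5.

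**Figure D3:**
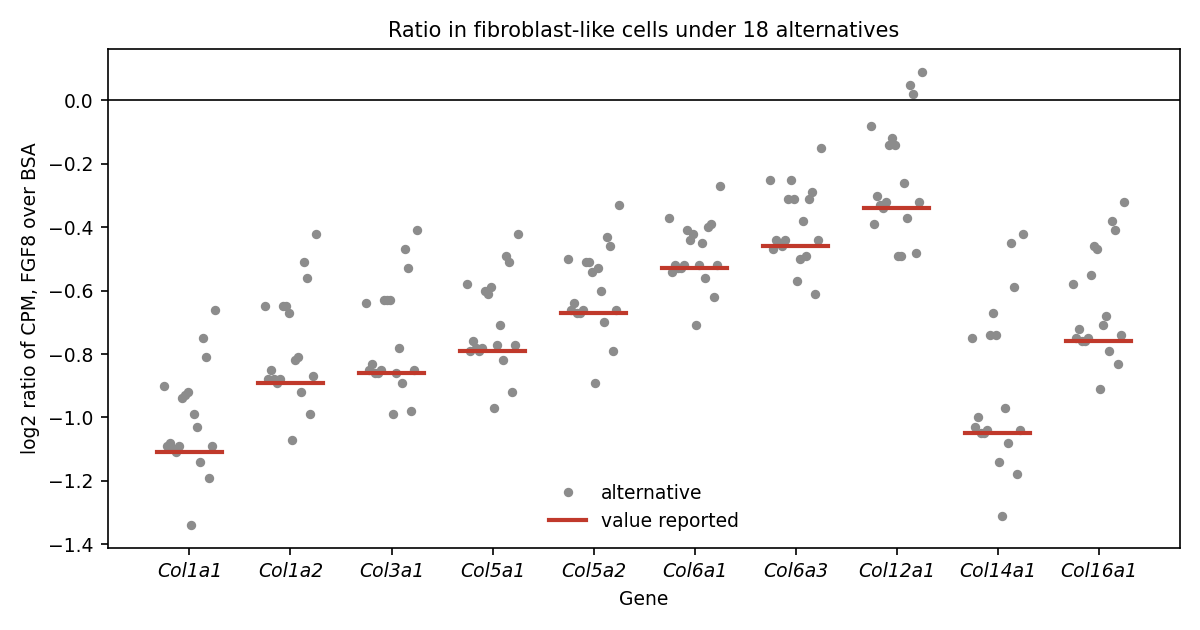
Log2 ratio of CPM (FGF8 over BSA) of each collagen in fibroblast-like cells: the red line is the value reported and each grey point 1 of 18 alternative ways of choosing, weighting or scaling the cells. For 9 members every point lies below 0, and for *Col12a1* 3 points lie above it, at most at 0.09.

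Among the named cell types, fibroblast-like cells gave the largest share of their UMIs to the 10 collagens in both libraries. The shares did not follow connective tissue identity throughout. Chondrocyte-like cells (0.594% with FGF8, 0.849% with BSA) lay below the glial Schwann-like cells (0.810% and 0.863%). Free RNA from broken cells can add collagen UMIs to droplets, and its part was not tested. The blood cell types, which are not known as sources of fibrillar collagen, served as a reference level. Not every blood cell held collagen UMIs. With FGF8, *Col1a1* was found in 45.8% (mast-like) to 88.4% (macrophage-like) of cells of these types. With BSA it was found in 55.3% (mast-like) to 85.2% (erythroid-like). The 10 genes made up 0.254% and 0.234% of the UMIs of macrophage-like cells (FGF8 and BSA library), 0.716% and 0.359% in neutrophil-like, 0.217% and 0.297% in mast-like, and 0.215% and 0.454% in erythroid-like cells. In macrophage-like cells of the FGF8 library *Col1a1* gave 24.1% and *Col3a1* 28.2% of the collagen UMIs, beside 24.4% and 28.0% in fibroblast-like cells. In the BSA library they gave 30.6% and 23.5%, beside 28.5% and 27.5%. Erythroid-like cells lay near the fibroblast-like values in the FGF8 library (24.7% and 28.7%) and further from them in the BSA library (37.5% and 18.9%).

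**Figure D4:**
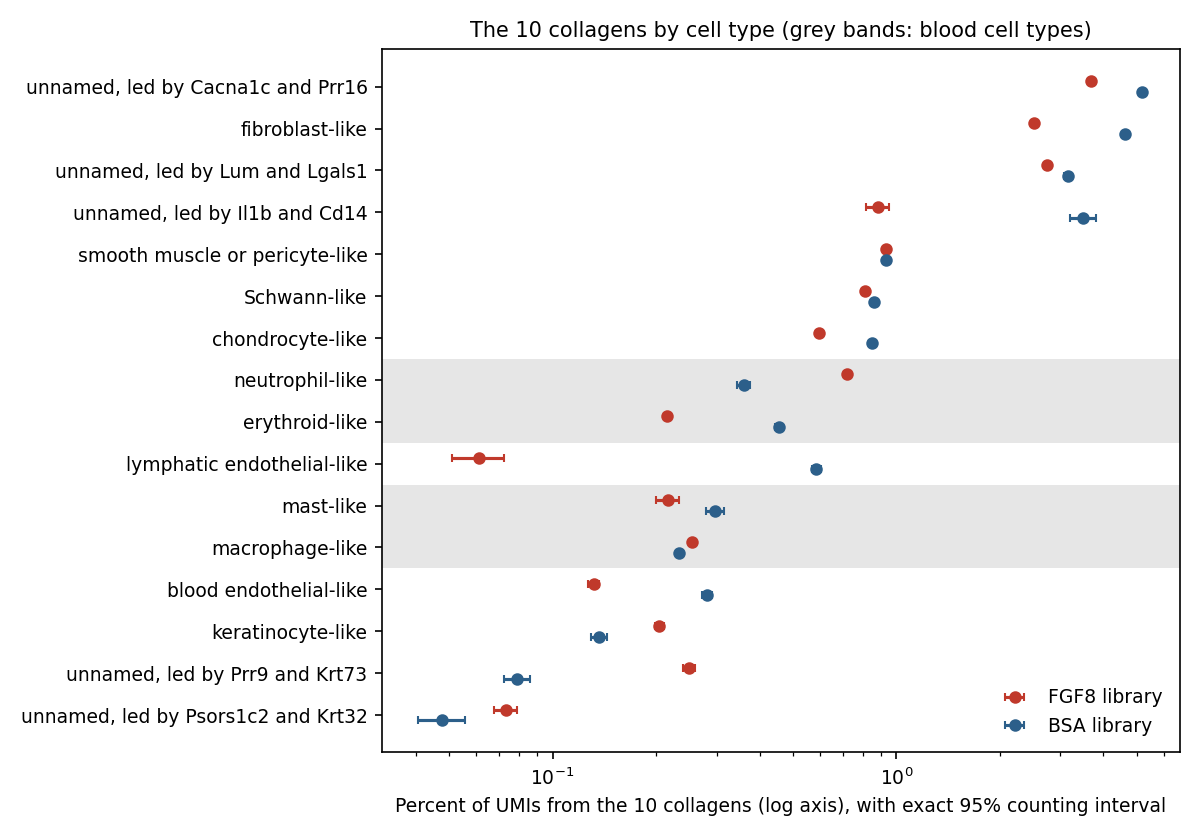
Percent of UMIs from the 10 collagens in each cell type on a log axis, with exact 95% counting intervals, for the FGF8 library (red) and the BSA library (blue). Grey bands mark the blood cell types, which run from 0.215% to 0.716%, and fibroblast-like cells stand above them at 2.52% and 4.64%.

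In fibroblast-like cells every member lay above the highest blood cell type of its library. The fold above it ran from 2.36 (*Col6a3*) to 4.69 (*Col14a1*) in the FGF8 library and from 5.27 (*Col16a1*) to 14.1 (*Col12a1*) in the BSA library. The highest blood cell type of the FGF8 library was neutrophil-like for all 10, with 1737 CPM of *Col1a1* and 2011 CPM of *Col3a1*. With the mean level of the blood cell types subtracted, the median log2 ratio of the members in fibroblast-like cells was -0.88, and all 10 remained below 0.

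A cluster of shallow cells led by *Cacna1c* and *Prr16* (368 FGF8 cells with a median of 2567 UMIs, 171 BSA cells with 2822) held the largest share of collagen UMIs of all cell types, 3.69% and 5.18%. It was left unnamed because no fibroblast marker was among its leading genes, although fibroblast markers had the highest mean fold in it. In these cells 8 of 10 members were lower in the FGF8 library, beside 46.5% of all genes, with a median of -0.40. A second shallow cluster, led by *Lum* and *Lgals1* (245 and 113 cells, with medians of 700 and 1044 UMIs), held 2.74% and 3.15%, and 6 of 10 members were lower there, beside 35.8% of all genes, with a median of -0.09. When both clusters were joined to the fibroblast-like cells, an alternative chosen after seeing the data, the median over the members was -0.76.

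Smooth muscle or pericyte-like cells, the contractile cells of vessel walls, held the same share of collagen in both libraries, 0.933% (0.923 to 0.943%) and 0.934% (0.923 to 0.945%). Of the 10 members 3 were lower in the FGF8 library, beside 47.9% of all genes, with a median ratio of 0.07. *Col6a1* (800 CPM in the FGF8 library and 920 CPM in the BSA library) and *Col6a3* (891 and 950 CPM) were the members that stood furthest above the blood cells here, 3.0 and 2.52-fold in the FGF8 library and 5.64 and 6.18-fold in the BSA library. *Col1a1*, at 1329 and 1303 CPM, was below the highest blood cell type in both, and so was *Col14a1*, at 49.0 and 15.5 CPM.

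Schwann-like cells, the glia of peripheral nerve, held 0.810% (0.800 to 0.820%) and 0.863% (0.851 to 0.876%). The median log2 ratio was -0.11, with 6 of 10 members lower beside 50.9% of all genes. *Col14a1*, at 308 CPM in the FGF8 library and 345 CPM in the BSA library, stood 4.50-fold and 6.05-fold above the highest blood cell type, and *Col16a1*, at 194 and 162 CPM, 4.85-fold and 3.97-fold. For *Col16a1* the level in Schwann-like cells of the FGF8 library was above that in fibroblast-like cells, at 127 CPM, whereas in the BSA library it was below the 215 CPM there.

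Chondrocyte-like cells, which build cartilage around type II collagen, held members that went in both directions. *Col6a1* had 1397 CPM in the FGF8 library (4349 UMIs in 131 cells) and 546 CPM in the BSA library (838 UMIs in 52 cells), a log2 ratio of 1.35 (1.25 to 1.46). *Col6a3* had 1067 and 657 CPM, at 0.70 (0.60 to 0.80), and *Col16a1* had 328 and 263 CPM, at 0.32 (0.15 to 0.49). These 3 members were higher in the FGF8 library and stood 3.02 to 8.20-fold above the blood cells in both libraries.

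Of the 5 fibrillar members, *Col1a1*, *Col1a2*, *Col3a1* and *Col5a2* had a lower summed CPM in chondrocyte-like cells of the FGF8 library. *Col5a1* had 158 and 166 CPM, with a log2 ratio of -0.08 (-0.30 to 0.15). *Col1a1* had 652 CPM in the FGF8 library and 2137 CPM in the BSA library, at -1.71 (-1.79 to -1.63), and *Col1a2* had 1069 and 2491 CPM, at -1.22 (-1.29 to -1.15). In the FGF8 library both were below the highest blood cell type, at 0.375 and 0.623 of its level, and in the BSA library they were 1.26 and 1.91-fold above it. *Col12a1* had 304 and 606 CPM, at -1.0 (-1.13 to -0.86). In all, 7 of 10 members were lower, beside 52.6% of all genes, with a median of -0.79. *Col2a1*, the cartilage collagen that is no member of the set, had 26240 and 34350 CPM in these cells.

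Endothelial-like and keratinocyte-like cells held little collagen. Blood endothelial-like cells had 0.132% and 0.281% of their UMIs from the 10 genes, and no member was above the highest blood cell type in either library. Lymphatic endothelial-like cells had 0.0611% in the FGF8 library, in 11 cells, and 0.585% in the BSA library, in 48 cells. In the latter 8 of 10 members were above the highest blood cell type, by 1.03-fold (*Col6a1*) to 1.51-fold (*Col14a1*), and in the former none was. Keratinocyte-like cells (median 9199 and 1645.5 UMIs per cell) had 0.204% and 0.137%, and again no member was above the highest blood cell type. At these levels 0 of 10 members were lower in the FGF8 library in keratinocyte-like cells, beside 32.8% of all genes, and 0 of 10 in neutrophil-like cells, beside 37.9%.

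Cells rich in a member tended to be rich in the others. Over the 45 pairs of members, the Spearman correlation of CPM across the fibroblast-like cells of a library had a median of 0.51 in the FGF8 library (2901 cells) against 0.43 in the BSA library (1528 cells). Deep cells give less noisy values, so each cell was also thinned to 5000 UMIs, after which the medians were 0.387 (2856 cells) and 0.321 (1454 cells). These cells share a library and may share free RNA, and the values are descriptions.

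The pairs fell into an ordered pattern. *Col1a1* and *Col1a2* stood highest in both libraries, at 0.914 and 0.902 after thinning, followed by *Col1a2* with *Col3a1* at 0.790 and 0.725. *Col5a1* with *Col3a1* reached 0.687 and 0.638, and *Col14a1* with *Col3a1* 0.658 and 0.627. The lowest values came from pairs with a type VI chain: *Col6a3* with *Col12a1* was the lowest pair in both libraries, at 0.172 and 0.084. Low values were not particular to type VI. After thinning to 5000 UMIs, the values of *Col16a1* with members outside type VI ran from 0.231 to 0.408 in the FGF8 library and from 0.225 to 0.432 in the BSA library. *Col6a1* and *Col6a3*, which assemble into the same protein, reached 0.374 and 0.379 with each other, and in the BSA library neither had a higher value with any other member. In the FGF8 library *Col6a1* had higher values with *Col1a1* (0.405) and *Col1a2* (0.375).

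**Figure D5:**
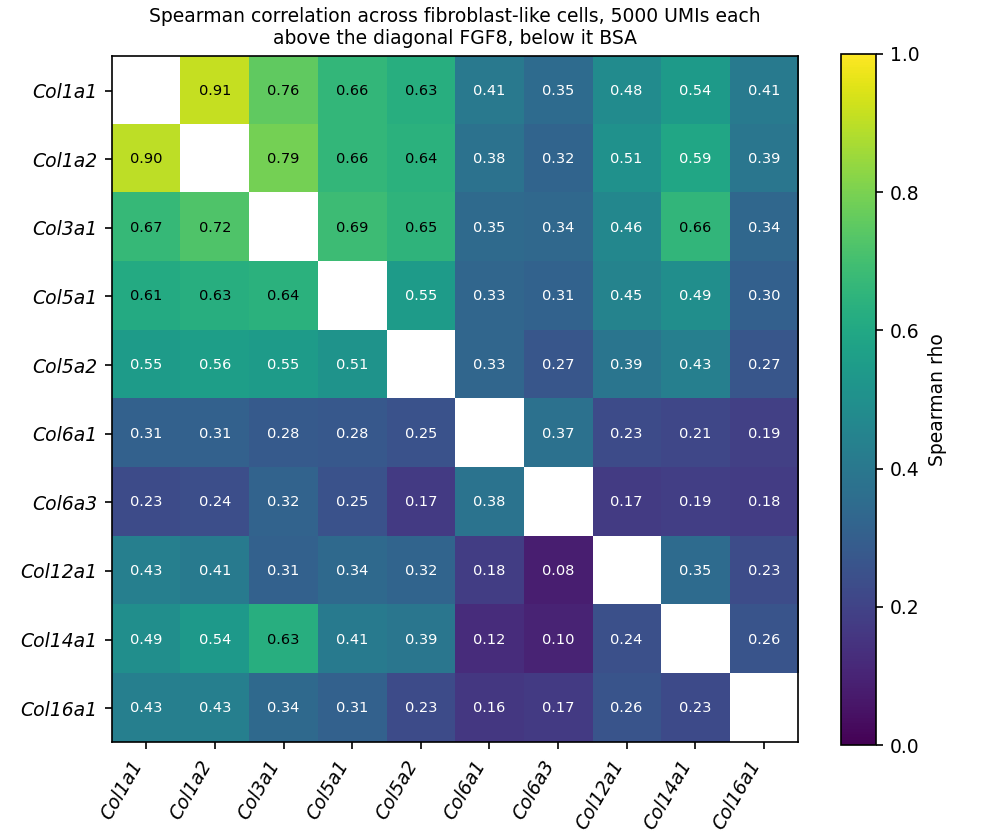
Spearman correlation of CPM between collagens across fibroblast-like cells thinned to 5000 UMIs each, for the FGF8 library above the diagonal and the BSA library below it, with the value in each cell of the map. The chains of types I, III and V form a block at the upper left that reaches 0.914 and 0.902 for *Col1a1* with *Col1a2*. The rows of *Col6a1* and *Col6a3* are lower, and so is that of *Col16a1*.

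The other 34 collagen genes were mostly lower too. Of the 30 with at least 100 UMIs in fibroblast-like cells 29 were lower with FGF8, beside 57.5% of all genes, and the median ratio was -0.68. Of these, 20 were below -0.5, beside 15.6% of all genes, and 5 below -1, beside 2.39%. The 5 below -1 were *Col4a4* (-1.32; 51 UMIs in the FGF8 and 65 in the BSA library), *Col8a2* (-1.29; 13.4 and 32.7 CPM), *Col11a2* (-1.24; 3.24 and 7.66 CPM), *Col6a6* (-1.22; 8.67 and 20.2 CPM) and *Col4a6* (-1.06; 3.09 and 6.45 CPM). The 3 highest were *Col28a1* (0.72; 177 and 55 UMIs), which was highest in Schwann-like cells at 772 and 567 CPM, *Col5a3* (-0.07) and *Col18a1* (-0.11; 79.0 and 85.0 CPM). *Col2a1* had 22.2 and 41.2 CPM in fibroblast-like cells, a ratio of -0.89.

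The machinery that makes collagen differed less than collagen itself. Of 20 genes for the folding, secretion and processing of procollagen, 19 had at least 100 UMIs, and 16 of these were lower in the FGF8 library, beside 57.5% of all genes. The median of the 19 was -0.29, with 2 below -0.5, beside 15.6% of all genes, and 2 above 0.5, beside 10.9%. The lowest were *Adamts3* (18.7 and 30.3 CPM, -0.69), *Creb3l1* (70.9 and 109.5 CPM, -0.63), a transcription factor for secreted matrix genes, and *Adamts2* (132 and 184 CPM, -0.48), which with *Adamts3* encodes proteases that cut procollagen at its amino end. The highest were *Pcolce2* (39.2 and 16.2 CPM, 1.28) and *Tll1* (33.9 and 23.5 CPM, 0.53), which act in cutting the carboxyl end, and *Furin* (46.0 and 42.7 CPM, 0.11).

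Genes for collagen receptors and uptake were mixed. Of 13 genes 11 had at least 100 UMIs, 8 were lower in the FGF8 library, beside 57.5% of all genes, and 4 lay below -0.5, beside 15.6%, with a median of -0.42. The lowest were *Itga10* (82 and 80 UMIs, -0.93), *Antxr1* (217 and 387 CPM, -0.83), an anthrax toxin receptor that binds collagen, and its relative *Antxr2* (37.8 and 57.4 CPM, -0.60). The integrin subunits *Itga2* (5.82 and 4.36 CPM, 0.42), *Itga1* (23.3 and 21.5 CPM, 0.11) and *Itgb1* (515 and 482 CPM, 0.10), which pair into collagen-binding integrins, were the highest.

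Outside the collagens, the 10 genes whose level followed that of the summed members most closely over the 11 named cell types of both libraries were *Mfap2* (Pearson r of log2(CPM + 1) 0.924), *Pcolce* (0.923), *Mxra8* (0.923), *Cdh11* (0.918), *Dact1* (0.90), *Mdk* (0.899), *Spon1* (0.892), *Pamr1* (0.890), *Serpinf1* (0.886) and *Pdgfrl* (0.883). They came from 10704 genes ranked over 22 points, which share libraries and may share free RNA. *Mfap2* encodes a microfibril protein, *Pcolce* an enhancer of procollagen cleavage, and *Cdh11* a cadherin of mesenchymal cells. The points include the fibroblast-like cells of both libraries, so the ratios of these genes there are in part fixed by the choice, and are a description: from -1.46 for *Pamr1* (21.3 and 58.7 CPM) to -0.29 for *Pcolce* (436 and 532 CPM), with *Mfap2* at -0.92 (481 and 912 CPM).

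Since the members were lower together, their upstream sequences were searched for 4 short motifs on both strands in the 250 bases before the transcription start, for the 6 members with an entry in the RefSeq promoter table (GRCm38.p6). CCAAT, the box bound by NF-Y, was found for 2 of 6 members (*Col1a2* and *Col16a1*), beside 37.5% of 27025 genes. The GC box GGGCGG was found for 3 of 6 (*Col1a2*, *Col5a1* and *Col16a1*), beside 35.4%, TATAAA for 1 of 6 (*Col3a1*), beside 14.3%, and the AP-1 motif TGANTCA for 1 of 6 (*Col6a1*), beside 7.82%. No motif was shared by all 6. The 120 bases before the start are shown for the type I chain *Col1a2* and for *Col5a1*, whose log2 ratios in fibroblast-like cells were -0.89 and -0.79 and which hold different motifs in this stretch, with the motifs in capitals.
Col1a2, GRCm38.p6 chr6:4505498-4505617, plus strand: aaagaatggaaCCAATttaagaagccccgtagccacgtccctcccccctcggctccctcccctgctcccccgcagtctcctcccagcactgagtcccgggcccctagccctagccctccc
Col5a1, GRCm38.p6 chr2:27886305-27886424, plus strand: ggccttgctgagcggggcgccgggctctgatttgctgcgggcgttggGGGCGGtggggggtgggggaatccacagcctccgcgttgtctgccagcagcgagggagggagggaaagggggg
A match gives letters in this window only, and binding was not measured.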

How the data were processed

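Single-cell RNA sequencing was analysed for 1 FGF8 and 1 BSA library. The authors captured cells with 10x 3′ v3.1 chemistry and deposited raw UMI counts per gene and barcode, made with Cell Ranger 9.0.0 per the submitters' processing notes, before any filter on genes or mitochondrial share. Gene IDs were matched to GENCODE vM39 on GRCm39. Barcodes were kept if they had over 200 and under 7500 genes with a UMI and less than 15% mitochondrial UMIs. No doublet caller was run, and the upper gene limit is the only guard against doublets. The libraries were clustered with Seurat 5.3.0 and sctransform 0.4.2 (R 4.3.3) by the steps of the study's methods (SCTransform, CCA integration, resolution 0.05), with 30 components and seed 42 chosen here, with the 44 collagen genes, *Xist*, *Tsix* and Y-linked genes left out, which left 2962 of 3000 features. Fibroblast-like cells and the shallow cluster left unnamed were reclustered at a resolution of 0.2. Clusters were named from marker lists and left unnamed with fewer than 3 markers found in at least 10% of cells, if shallow and without a marker among their 10 leading genes, or with more leading markers of another type.

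For each library and cell type, UMIs were summed in Python 3.11.15 (numpy 2.4.6, scipy 1.17.1, pandas 2.3.3), scaled to 1000000, and compared as log2 ratios with exact conditional intervals. Sums have exact Poisson and shares exact binomial (Clopper-Pearson) intervals. Ratios in fibroblast-like cells and subclusters were set beside all genes with at least 100 UMIs, and those in other cell types beside genes with at least 10. The intervals were tested on simulated data for the comparison in fibroblast-like cells (14121 genes, 200 changed) and held the true ratio for 95.0% of changed and 95.45% of unchanged genes. The simulated counts were Poisson draws, the error that the intervals assume. This coverage therefore checks the calculation only and says nothing of the spread between cells or animals. With 1 library per condition, no p-value or standard error is given.

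The members and lists were chosen with earlier results of these data known. Beside the members, the genes named are other collagens past a log2 ratio of 1, the 3 highest and 3 lowest of each list, *Col6a2*, *Col5a3* and *Col2a1*, and the 10 genes most like the summed members by Pearson's r among those with at least 1000 UMIs. Alternatives were other cell filters, cell typing, integration, resolution and features, equal weight of cells, thinning to 2000 and 5000 UMIs, each sex, other scalings, equal subcluster weights, cells without a *Prg4* UMI and subtraction of the blood level. Another 2 were chosen after seeing the data.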

Additional observations from a re-analysis of the deposited data

Results flagged for a closer look

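In 2 named cell types all 10 collagens had a log2 ratio above 0, opposite to fibroblast-like cells, and this difference between cell types was not tested. In neutrophil-like cells (540 FGF8 and 158 BSA cells) the median was 1.36, from 0.60 for *Col1a1* (1737 and 1146 CPM) to 2.81 for *Col12a1* (311 and 44.3 CPM), beside 37.9% of all genes lower in the FGF8 library. In keratinocyte-like cells (131 and 122 cells) the median was 0.59, from 0.21 for *Col16a1* (37.1 and 32.1 CPM) to 1.84 for *Col12a1* (103 and 28.9 CPM), beside 32.8% of all genes lower. In keratinocyte-like cells no member was above the highest blood cell type of its library, and in the FGF8 library that highest type was neutrophil-like for all 10. The part of free RNA in these values was not tested.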

How the results depend on the processing

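Over 18 alternatives the median log2 ratio of the 10 collagens in fibroblast-like cells ran from -0.94 to -0.37, and 9 or 10 members were lower in the FGF8 library under each. The median left the range of the members' 2nd to 9th values (-1.05 to -0.46) in 2 of them, to -0.44 with equal subcluster weights and to -0.37 without subcluster 1. That range is wide, and smaller differences also occurred within it. Beside the reported -0.77, the median was -0.58 with equal weight of cells and -0.58 with the stricter cell filter. After thinning to 2000 and 5000 UMIs it was -0.56 and -0.57. Summed CPM gives deep cells more weight than these settings do. *Col12a1* turned to 0.05, 0.02 and 0.09 with equal subcluster weights, in cells without a *Prg4* UMI and without subcluster 1, and the other 9 members turned under none. The cause was not tested. The percent of UMIs from the 10 collagens (FGF8 and BSA library) was 3.12% and 4.94% with a stricter cell filter, 2.47% and 4.51% with no upper gene limit and cells typed one by one, 2.59% and 4.67% with the same typing and the upper limit kept, 2.54% and 4.66% without integration, and 2.54% and 4.65% with collagens among the features. It was 3.05% and 4.88% after thinning to 2000 UMIs, 3.03% and 4.86% after thinning to 5000, 2.25% and 4.69% in female-called cells, 2.58% and 4.6% in male-called cells, and 3.24% and 4.82% without *Prg4* UMIs. With the shallow clusters joined, an alternative chosen after seeing the data like the next, it was 2.54% in the FGF8 library, and without subcluster 1 it was 3.77% and 5.13%. No paired analysis was possible because each condition is 1 library. Counting intervals of the members are narrow at this depth, but they say nothing of the variation between animals.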

Other observations

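Among the small clusters left unnamed, the one led by the hair follicle genes *Prr9* and *Krt73* (74 FGF8 and 41 BSA cells) had 0.249% and 0.0789% of its UMIs from the 10 collagens, and the members had a median log2 ratio of 1.84. The cluster led by *Psors1c2* and *Krt32* (35 and 23 cells) had 0.0731% and 0.0478%, the lowest share of collagen of all clusters in the BSA library. A cluster led by the myeloid genes *Il1b* and *Cd14* had 0.882% in 59 FGF8 cells and 3.49% in 7 BSA cells, with median depths of 745 and 2093 UMIs. Mast-like and erythroid-like cells had median log2 ratios of -0.55 and -0.75, whereas macrophage-like cells had 0.21.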
